A study of Mus musculus with 27 samples.

Results

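This account follows 10 interferon-stimulated genes of the IFIT, Mx, viperin and ISG15 pathway through mouse bone marrow-derived macrophages (BMDM) stimulated with toll-like receptor (TLR) ligands. They are Ifit1, Ifit2, Ifit3, Rsad2, Mx1, Mx2, Isg15, Usp18, Uba7 and Ube2l6, chosen by gene symbol from the 32138 named genes of the array, and they have 12 of its 55681 probes. BMDM came from female C57BL/6 mice aged 6 to 8 weeks, matured for 7 days in medium conditioned by L929 cells. RNA was hybridised to 1-colour Agilent arrays in 9 groups of 3 arrays: naïve cells with no ligand, cells given a ligand for 4 h (acute), and cells given it for 24 h, washed and given the same ligand for 4 h again (re-stimulated). Lipopolysaccharide (LPS, a TLR4 ligand) and Pam3CSK4 (TLR2) were used at 100 ng/ml and Poly(I:C), a double-stranded RNA that acts on TLR3, at 10 µg/ml. The sample labels give 100 µM for CpG DNA (TLR9), whereas the study's methods give a lower concentration. By those methods the replicates of a group are independent cultures, and at one place each is said to pool the marrow of several mice. All groups share strain, sex and culture, and no group carries an altered gene. The methods also state that non-adherent cells were removed during culture. Flow cytometry there typically found the great majority of cells positive for a macrophage surface marker. A culture may still hold some other cells. Acute Pam3CSK4 replicate 2 and re-stimulated LPS replicate 3 failed the authors' quality control and have no normalized values, so these groups have 2 arrays and 25 arrays were compared.

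Type I interferon binds its receptor on the macrophage and switches on genes that carry an interferon-stimulated response element (ISRE) in their promoters. IFIT proteins bind foreign RNA, viperin (Rsad2) makes a chain-terminating nucleotide, and Mx proteins are dynamin-like GTPases that trap viral components. ISG15 is a ubiquitin-like protein that is attached to other proteins by an activating enzyme (Uba7), a conjugating enzyme (Ube2l6) and a ligase (Herc6 in mice), and removed by Usp18, which also restrains the interferon receptor.

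The ISRE is the sequence through which these genes are known to answer interferon, so promoter stretches that hold it are shown first. RefSeq promoter windows on GRCm38.p6, 250 bases before to 50 after a gene's start, were at hand for 7 of the 10 genes: Ifit1, Ifit2, Ifit3, Rsad2, Isg15, Uba7 and Ube2l6. The core GAAANNGAAA was searched on both strands, where the other strand reads TTTCNNTTTC. It occurred in 4 of the 7, with 2 matches in Ifit1, 2 in Ifit3, 1 in Rsad2 and 3 overlapping matches in Isg15, and in 3.99% of all 27025 genes with a window of that length (3.44% of 32851 windows). The stretches below read 5′ to 3′ on the gene's strand, with the core in capitals.
Ifit1, chr19:34640770-34640828, plus strand: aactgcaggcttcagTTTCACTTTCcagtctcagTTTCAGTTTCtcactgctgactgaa
Ifit3, chr19:34583358-34583431, plus strand: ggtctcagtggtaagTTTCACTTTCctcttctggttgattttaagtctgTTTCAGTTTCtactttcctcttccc
Rsad2, chr12:26456548-26456587, minus strand: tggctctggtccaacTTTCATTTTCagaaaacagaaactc
Isg15, chr4:156200860-156200911, minus strand: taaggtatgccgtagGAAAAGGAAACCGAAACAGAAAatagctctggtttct
In Isg15 the overlapping cores form 1 block that runs from 78 to 57 bases before the start, and the nearest core in Ifit1 ends 76 bases before it. These letters did not occur in the windows used for Ifit2, Uba7 and Ube2l6, which says nothing of other elements or other starts. A match describes sequence and is not evidence of binding.

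The 10 genes were well above background and unsaturated on all 25 arrays, at log2 intensities from 7.02 to 18.37. All 7 measured macrophage markers were above background on every array, and their summed log2 level lay between 18.73 and 19.49. The acute LPS arrays had the lowest sums, from 18.73 to 18.86. Single markers moved more than the sum: Mertk ranged from 8.02 to 12.94, Fcgr1 from 9.94 to 14.07 and Emr1 from 14.03 to 17.21. The summed neutrophil markers, 5 genes, ranged from 11.53 to 14.76, and of the 2 dendritic cell markers Flt3 was above background on 10 arrays and Zbtb46 on 24. The summed level of these 2 ranged from 4.09 to 10.69 and is given beside the changes it moved with. Flt3 reached at most 6.02 and Zbtb46 at most 10.67, so a higher sum need not mean that both rose. The percentage of probes above background lay between 42.1 and 54.3, except for 74.6 on naïve replicate 3. Replicates 1, 2 and 3 share slides 1, 2 and 3 in every group but acute LPS, whose arrays lie on slides 4, 5 and 6 with no other group. Acute LPS and its slides therefore cannot be told apart. In cultures as in any bulk sample, fewer responding cells and less RNA per cell cannot be told apart either.

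**Figure D1:**
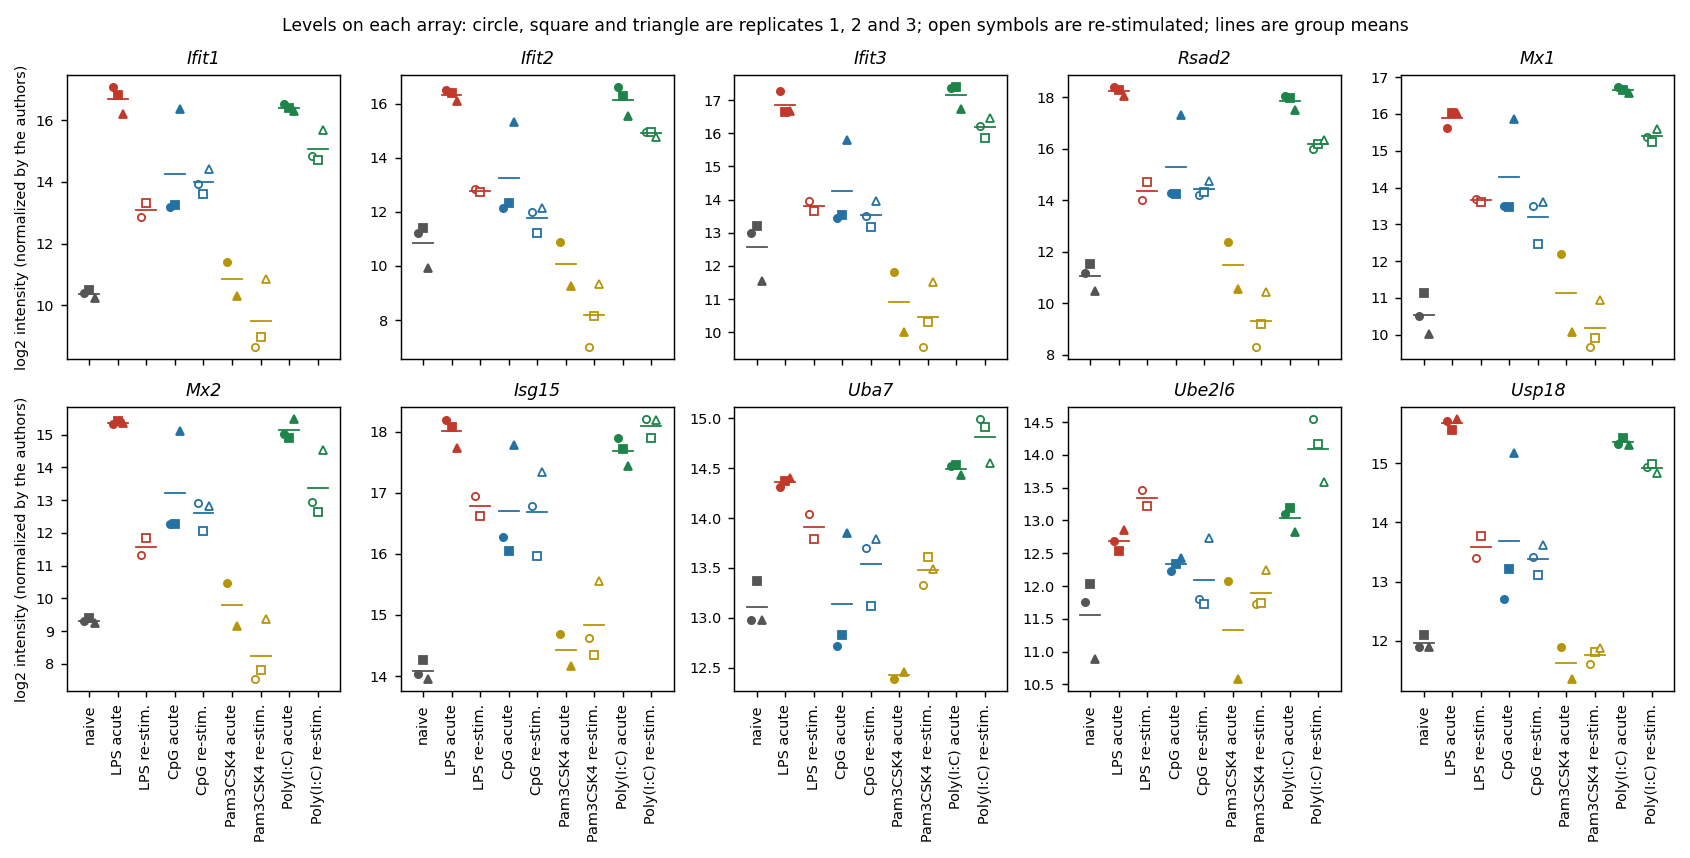
Each panel gives 1 gene, with the authors' normalized log2 intensity on the y axis and the 9 groups on the x axis; every symbol is 1 array and each line a group mean. Acute LPS and acute Poly(I:C) arrays sit above all naïve arrays for the 10 genes, acute CpG splits into 2 lower arrays and 1 higher one for most genes, and Pam3CSK4 arrays lie on both sides of the naïve ones.

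Acute LPS raised all 10 genes. A gene was called changed at an adjusted p under 0.05 (limma, Benjamini-Hochberg over all probes tested) with a difference of at least 1.5-fold, and by this rule 13.2% of 29933 tested probes were called higher after LPS. The median change of the 10 was 4.81 on the log2 scale, against -0.01 over all probes tested. Rsad2 measured 11.15, 11.50 and 10.47 in naïve cells and 18.37, 18.27 and 18.03 after LPS, so that the groups lay far apart. Its change was 7.18 ± 0.30 (SE) on the log2 scale, a 145-fold rise with an adjusted p of 0.000204. Ifit1 rose by 6.31 ± 0.27, Mx2 by 6.04 ± 0.17, Ifit2 by 5.49 ± 0.42, Mx1 by 5.35 ± 0.32 and Ifit3 by 4.27 ± 0.47, with adjusted p between 0.000102 and 0.0023. With the probes used, the ISG15 genes moved less on this scale. Isg15 itself rose by 3.92 ± 0.21 and Usp18 by 3.71 ± 0.17, whereas the activating enzyme Uba7 rose by 1.25 ± 0.19 and the conjugating enzyme Ube2l6 by 1.13 ± 0.33. The call for Ube2l6 (adjusted p = 0.0474) was lost in 7 of 17 alternatives, in which its adjusted p ranged from 0.0146 to 0.126. The order depends on the probe, as the second Isg15 probe rose by 5.05 ± 0.24, more than Ifit3, and the second Ube2l6 probe by 2.16 ± 0.35. The summed dendritic cell markers were higher too, at 4.09 to 5.62 in naïve cells and 9.59 to 10.69 after LPS. Flt3 did not pass 6.02 on any array, so this rise was carried by Zbtb46. Whether these markers or the slides of the acute LPS arrays have a part in the rises of the 10 genes was not tested.

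Acute Poly(I:C), whose arrays share slides with the naïve ones, raised 9 of the 10 genes, where 3.8% of 28426 tested probes were called higher. The median change was 4.94, against -0.1 over all probes tested. Rsad2 measured 18.03, 17.96 and 17.51 after Poly(I:C), a rise of 6.79 ± 0.32 or 111-fold over naïve cells (adjusted p = 0.00114). Mx1 rose by 6.09 ± 0.31, Ifit1 by 6.02 ± 0.16, Mx2 by 5.81 ± 0.20, Ifit2 by 5.31 ± 0.48 and Ifit3 by 4.57 ± 0.48. With the probes used, the members of the ISG15 arm again had the lower changes, with Isg15 at 3.59 ± 0.19, Usp18 at 3.39 ± 0.15 and Uba7 at 1.38 ± 0.18. The second Isg15 probe rose by 4.09 ± 0.27, nearer to Ifit3. Ube2l6 was not called with the probe used (1.48 ± 0.33, adjusted p = 0.0583). It was called with its second probe (2.30 ± 0.35, adjusted p = 0.0226). With the replicate number as a block, 9 genes were again called, where 1265 of all probes were. The summed dendritic cell markers lay between 6.55 and 8.38 on these arrays, also above the naïve range, and their part was not tested.

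The response to CpG was uneven between its acute arrays. Each is a separate culture on a separate slide, so culture and slide cannot be told apart. Rsad2 measured 14.29, 14.24 and 17.31 on the acute CpG arrays, Ifit1 13.19, 13.27 and 16.35, and Mx2 12.28, 12.27 and 15.12. Replicates 1 and 2 lay close together and replicate 3 stood above them for all 10 genes, by 0.09 (Ube2l6) to 3.08 (Ifit1) log2 units over the next array. On replicate 3 Ifit1, Mx2 and Isg15 fell within the range of the acute Poly(I:C) arrays and the other 7 genes were 0.14 to 0.93 below it, while replicates 1 and 2 were below that range for all 10. The summed neutrophil markers moved the other way on these arrays, at 14.02, 14.76 and 11.78, but they were also lowest on replicate 3 of naïve cells (11.91, against 13.28 and 13.67) and of acute Poly(I:C) (11.86, against 13.61 and 14.56). Replicate 3 was likewise lowest in re-stimulated CpG (11.99), acute Pam3CSK4 (12.08), re-stimulated Pam3CSK4 (11.81) and re-stimulated Poly(I:C) (11.57). In acute LPS, on its own slides, replicate 1 was lowest. The summed dendritic cell markers were at 7.43, 7.89 and 7.62, above the naïve range but not highest on replicate 3. The part of either list in the CpG result was not tested.

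**Figure D2:**
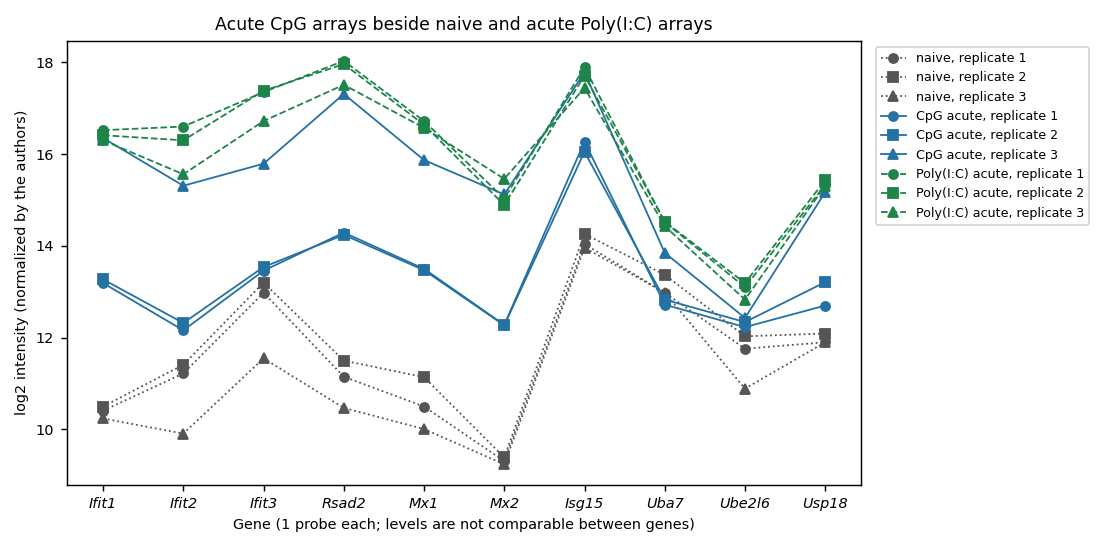
The 3 acute CpG arrays (blue), with the naïve (grey) and acute Poly(I:C) arrays (green), are plotted as log2 intensity for each of the 10 genes on the x axis; lines join values of 1 array. CpG replicate 3 follows the Poly(I:C) arrays, and replicates 1 and 2 lie between Poly(I:C) and naïve for most genes.

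Against naïve cells 4 genes were called higher after acute CpG, where 3.09% of 27954 tested probes were. They were Rsad2 (4.24 ± 0.87), Mx2 (3.91 ± 0.79), Mx1 (3.73 ± 0.71) and Isg15 (2.61 ± 0.47), with adjusted p between 0.0354 and 0.0491. Ifit1 had a change as large, 3.89 ± 0.86, but its error left it at an adjusted p of 0.0581. Uba7 stood at 0.02 ± 0.35, with 12.72, 12.83 and 13.85 after CpG and 12.98, 13.37 and 12.98 in naïve cells, and was the 1 gene whose groups overlapped. For the other 9 every CpG array was above every naïve array, as for 12.9% of tested probes. With the replicate number as a block 0 of the 4 calls held, where 586 of all probes were called. Without CpG replicate 3 there were 5 called genes, without naïve replicate 3 there was 1, and without any one of naïve replicates 1 and 2 and CpG replicates 1 and 2 there were 0.

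Acute Pam3CSK4 gave no called change in the 10 genes. By limma 0 of 27843 tested probes were called either way (0%), although 3458 had an unadjusted p under 0.05, 1 of them from the 10 genes. Rsad2 measured 12.37 and 10.55 on the 2 arrays, the first above and the second within its naïve range, and Isg15 14.69 and 14.16. Ifit3 was at 11.81 and 10.02, against 12.98, 13.20 and 11.55 in naïve cells, and its difference of -1.66 ± 0.75 was the widest of the 10 (adjusted p = 0.455). Of the 10 genes 5 were higher and 5 lower than in naïve cells, with a median of 0.05. Uba7 (12.39 and 12.46) and Usp18 (11.90 and 11.36) lay below every naïve array, Usp18 by less than the second decimal on 1 array, as did 16.2% of tested probes.

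The acute ligands were next compared directly. Between acute Poly(I:C) and acute CpG 0 of the 10 genes were called (0.0867% of 26534 tested probes were called higher), although all 10 were higher after Poly(I:C), by 0.70 ± 0.18 (Ube2l6) to 2.89 ± 0.87 (Ifit2, with Ifit3 at the same size). In limma 9 of the 10 had an unadjusted p under 0.05, as had 3692 of the tested probes. Without CpG replicate 3 the same comparison called 9 genes, all but Ube2l6, with Ifit2 at 3.92. Poly(I:C) against Pam3CSK4 called 9 genes, again without Ube2l6, where 2.13% of 26658 tested probes were called higher, and Rsad2 differed by 6.38 ± 0.56 (adjusted p = 0.0167). That count fell to 0 with the replicate block, without Poly(I:C) replicate 1 or replicate 2, and with all 27 arrays. With the block and with all 27 arrays, 0 of all probes tested were called. The 10 genes did not overlap between these groups (13.8% of tested probes were higher without overlap). CpG against Pam3CSK4 called 0 of the 10 genes and 0 of 25399 probes (0%) by limma, with changes of 0.71 to 3.82 and no overlap for any of the 10 (6.05% of tested probes were higher without overlap). An unadjusted p under 0.05 was found for 8 of the 10 and for 882 of the tested probes.

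**Figure D3:**
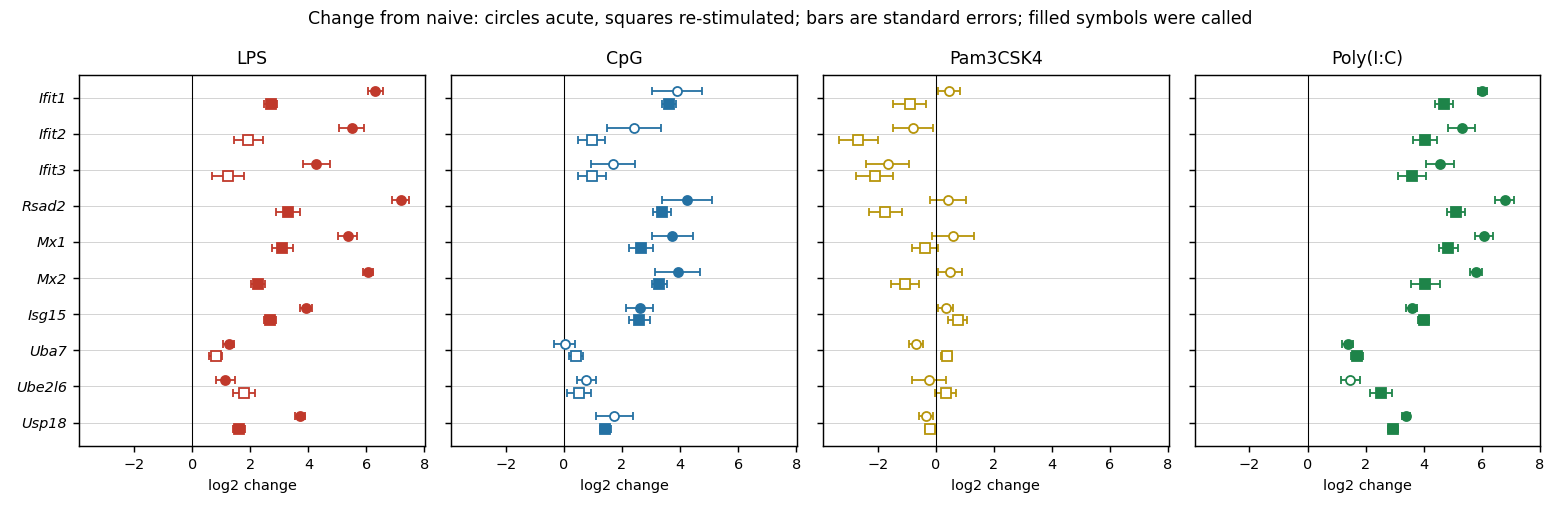
Log2 change from naïve cells (x axis) of the 10 genes (y axis) for each ligand, with circles for acute and squares for re-stimulated cells; bars are standard errors and filled symbols were called. For LPS the squares lie to the left of the circles for all genes but Ube2l6, while for Poly(I:C) the squares of Isg15, Uba7 and Ube2l6 lie to the right of the circles.

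Re-stimulation with LPS lowered 8 of the 10 genes against acute LPS, where 17% of 28592 tested probes were called lower. Rsad2 measured 18.37, 18.27 and 18.03 in acute and 13.99 and 14.69 in re-stimulated cells, a fall of 14.8-fold (-3.88 ± 0.27, adjusted p = 0.000543). Mx2 changed by -3.79 ± 0.23, Ifit1 by -3.61 ± 0.32, Ifit2 by -3.56 ± 0.22, Ifit3 by -3.04 ± 0.27 and Mx1 by -2.25 ± 0.22. In the ISG15 arm Usp18 changed by -2.09 ± 0.21 and Isg15 by -1.22 ± 0.24. The activating and conjugating enzymes were not called. Uba7 changed by -0.45 ± 0.20 (adjusted p = 0.124), and Ube2l6 went the other way, from 12.68, 12.53 and 12.86 to 13.46 and 13.22 (0.65 ± 0.21, adjusted p = 0.0566). That rise was called in 4 of 16 alternatives (adjusted p from 0.0207 to 0.295), among them the replicate block (0.74, adjusted p = 0.0405), while the second Ube2l6 probe changed by 0.10 ± 0.20. The ligase, Herc6, was called lower and is described with the other genes of the pathway. The call for Isg15 (adjusted p = 0.0108) was lost in 4 of 16 alternatives, in which its adjusted p ranged from 0.00355 to 0.158, whereas the calls for the 3 Ifit genes, Rsad2, both Mx genes and Usp18 were kept in all 16. These groups lie on different slides, as above. The summed dendritic cell markers were lower too, at 6.80 and 6.65 in re-stimulated cells, and their part was not tested.

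Re-stimulation with Poly(I:C) lowered 2 of the 10 genes, while Isg15, Uba7 and Ube2l6 had higher means than in acute cells without being called. Rsad2 went from 18.03, 17.96 and 17.51 to 15.99, 16.16 and 16.34, and Mx1 from 16.72, 16.64 and 16.57 to 15.37, 15.24 and 15.60. These were the 2 called genes (-1.67 ± 0.21, adjusted p = 0.0226, and -1.24 ± 0.17, adjusted p = 0.0256), where 2.62% of 27139 tested probes were called lower. Mx2 (-1.76 ± 0.51), Ifit1 (-1.33 ± 0.29), Ifit2 (-1.25 ± 0.29) and Ifit3 (-0.98 ± 0.26) were lower with adjusted p from 0.0539 to 0.0945, and Usp18 stood at -0.44 ± 0.15. For these 7 genes no re-stimulated array reached an acute one, as for 15.1% of tested probes. Isg15 measured 17.89, 17.71 and 17.44 in acute and 18.20, 17.89 and 18.19 in re-stimulated cells (0.41 ± 0.20, adjusted p = 0.243). Uba7 changed by 0.33 ± 0.18. Ube2l6 went from 13.10, 13.19 and 12.83 to 14.54, 14.17 and 13.58 (1.05 ± 0.28, adjusted p = 0.0817), with 0.74 ± 0.18 on its second probe. The count of 2 was 0 without Poly(I:C) acute replicate 1 or 2 or re-stimulated replicate 1 or 2, 4 without acute replicate 3 and 5 without re-stimulated replicate 3. It was 0 when all 9 groups were fitted together (3735 of all probes called) or no filter on dim probes was set (228).

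**Figure D4:**
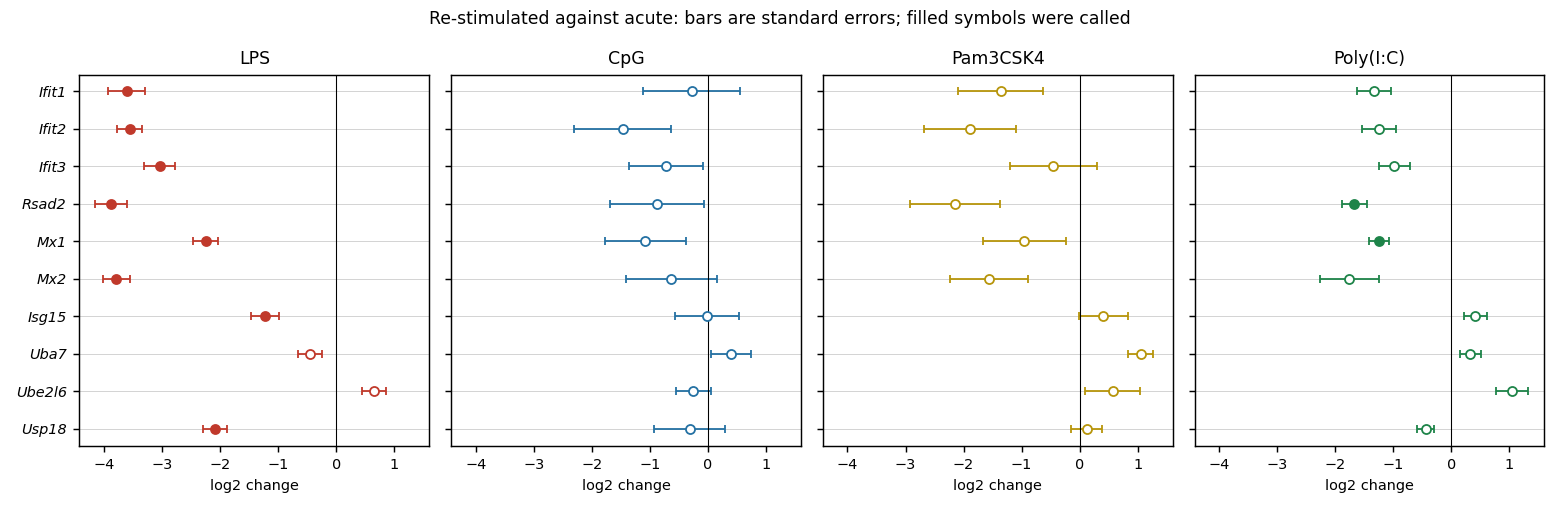
Log2 change of re-stimulated against acute cells (x axis) for the 10 genes (y axis) and each ligand; bars are standard errors and filled symbols were called. LPS shows 8 called falls and Poly(I:C) shows 2, while CpG and Pam3CSK4 show none and have the widest errors.

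Re-stimulation with CpG or with Pam3CSK4 gave 0 called genes by limma. For CpG 1.71% of 25739 tested probes were called lower, and the 10 changes ran from -1.47 (Ifit2) to 0.40 (Uba7). Of the 10, 0 had an unadjusted p under 0.05, while 5572 of the tested probes had. In re-stimulated CpG cells Rsad2 measured 14.19, 14.32 and 14.72, with an SD of 0.28 against 1.76 in acute cells, and Isg15 measured 16.78, 15.96 and 17.34. Without acute CpG replicate 3 the changes of Ifit1, Ifit3, Rsad2, Mx2, Isg15 and Usp18 turned from negative to positive. For Pam3CSK4 0 of 25430 tested probes were called (0%), and the changes ran from -2.15 (Rsad2) to 1.05 (Uba7). An unadjusted p under 0.05 was found for 2 of the 10 genes and for 3461 of the tested probes.

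Against naïve cells the 10 genes were still raised after Poly(I:C) re-stimulation, all 10 being called where 4.79% of 28411 tested probes were called higher. Rsad2 stood at 5.12 ± 0.30 above naïve, Mx1 at 4.85 ± 0.32, Ifit1 at 4.70 ± 0.30 and Isg15 at 4.01 ± 0.19, and Ube2l6 at 2.53 ± 0.39 (adjusted p = 0.0197). The count was 6 without re-stimulated replicate 1 and 10 with the replicate block, which called 1701 of all probes. Re-stimulated LPS, on slides shared with naïve cells, had 6 called genes where 3.27% of 27915 tested probes were called higher: Rsad2 (3.30 ± 0.40), Mx1 (3.1 ± 0.37), Ifit1 (2.70 ± 0.23), Isg15 (2.69 ± 0.21), Mx2 (2.26 ± 0.23) and Usp18 (1.62 ± 0.21). The other 4 were higher too, and no gene's groups overlapped (23.9% of tested probes were higher without overlap). That count was 8 without naïve replicate 3, 2 without naïve replicate 2, and 0 without naïve replicate 1 or either LPS array, and it was 1 with all 27 arrays. With the replicate block it was 8, as Ifit2 (adjusted p = 0.0255) and Ube2l6 (adjusted p = 0.0322) were called too. Of all probes, 116 were called with the 27 arrays and 4757 with the block. Re-stimulated CpG had 6 called genes where 6.65% of 28176 tested probes were called higher: Ifit1 (3.61 ± 0.24), Rsad2 (3.37 ± 0.31), Mx2 (3.28 ± 0.26), Mx1 (2.65 ± 0.42), Isg15 (2.60 ± 0.36) and Usp18 (1.42 ± 0.19). Without re-stimulated CpG replicate 1 there were 3, and with the replicate block the call for Mx1 was lost (2.65, adjusted p = 0.0556). These comparisons share the naïve arrays.

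After Pam3CSK4 re-stimulation 7 of the 10 genes were lower than in naïve cells, with a median change of -0.63 against 0.03 over all probes tested, but none was called. Ifit2 measured 7.02, 8.16 and 9.34, against 11.22, 11.41 and 9.91 in naïve cells (-2.67 ± 0.68, adjusted p = 0.0767). Ifit3 was at -2.11 ± 0.64 and Rsad2, which measured 8.31, 9.20 and 10.41, at -1.74 ± 0.57. Replicate 3 was the highest of the 3 arrays for both Ifit2 and Rsad2. It lay at 9.34 for Ifit2 and 10.41 for Rsad2, where the lowest naïve arrays lay at 9.91 and 10.47. Isg15 went the other way, with 14.62, 14.35 and 15.55 against 14.04, 14.26 and 13.96 (0.75 ± 0.34, adjusted p = 0.231). Of 27945 tested probes 2.74% were called lower and 2.61% higher. An unadjusted p under 0.05 in limma was found for 3 of the 10 genes and for 7079 of the tested probes. There were 2 called genes without naïve replicate 3, and 2 without re-stimulated replicate 3.

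The changes on re-stimulation with Poly(I:C) and with LPS were set against each other in 1 fit of all 9 groups. The difference was positive for each of the 10 genes, from 0.40 ± 0.53 (Ube2l6) to 2.32 ± 1.03 (Ifit2), and was 2.21 ± 0.97 for Rsad2 and 1.64 ± 0.59 for Isg15. None was called (adjusted p from 0.113 to 0.727), where 1.84% of 29570 tested probes were called higher. In limma 8 of the 10 had an unadjusted p under 0.05, as had 5960 of the tested probes. The second Isg15 probe was called in this comparison (2.46 ± 0.60, adjusted p = 0.0304). It had fallen by 1.93 with LPS and stood at 0.52 ± 0.26 with Poly(I:C). Against CpG (0.0216% of 27783 probes called higher) and against Pam3CSK4 (0.0613% of 27725) 0 of the 10 genes were called, with 1 and 0 at an unadjusted p under 0.05. Of the tested probes 3072 and 3336 had such a p. The spread of the acute CpG and Pam3CSK4 arrays enters these errors, and the acute LPS slides enter the first comparison.

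Which of the 9 group means was highest varied between genes. Acute LPS was highest for Ifit1, Ifit2, Rsad2, Mx2 and Usp18, and acute Poly(I:C) for Ifit3 and Mx1. For Ifit1 these groups averaged 16.69 ± 0.45 (SD, n = 3) and 16.41 ± 0.11 (n = 3) and overlapped, whereas for Mx1 they averaged 15.90 ± 0.24 and 16.64 ± 0.08 and did not. LPS and Poly(I:C) were not tested against each other in acute cells, since they lie on different slides. With the probes used, re-stimulated Poly(I:C) was highest for Isg15, Uba7 and Ube2l6, which are the modifier and the enzymes that activate and conjugate it. The second Isg15 probe gave another order, with acute LPS highest at 15.47 ± 0.16 and re-stimulated Poly(I:C) at 15.03 ± 0.31. The values that follow are those of the probes used, unless the second is named. Isg15 averaged 18.09 ± 0.18 there and 17.68 ± 0.23 in acute Poly(I:C), with the acute LPS arrays at 18.19, 18.08 and 17.74, and these groups overlapped. Ube2l6 averaged 14.09 ± 0.49, above 13.34 ± 0.17 (n = 2) in re-stimulated LPS and 13.04 ± 0.19 in acute Poly(I:C), so its next highest group was also a re-stimulated one. Its second probe was highest in re-stimulated Poly(I:C) too (11.03 ± 0.17). There acute Poly(I:C) came next, at 10.29 ± 0.14 against 10.25 ± 0.05 in re-stimulated LPS. At the bottom, re-stimulated Pam3CSK4 was lowest for 6 genes, acute Pam3CSK4 for Usp18, Uba7 and Ube2l6, and naïve cells for Isg15. On the second Ube2l6 probe naïve cells were lowest, at 7.99 ± 0.65 against 8.38 ± 0.87 in acute Pam3CSK4.

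Other genes of the pathway, listed by function, were read in the same comparisons. Herc6, the mouse ligase for ISG15, measured 7.97 ± 0.11 in naïve cells and rose by 5.32 ± 0.19 with acute LPS and 4.42 ± 0.19 with acute Poly(I:C). It fell 9.55-fold on LPS re-stimulation (adjusted p = 0.000452) and 2.04-fold on Poly(I:C) re-stimulation (adjusted p = 0.0424). Of the 6 genes of its list, which holds Trim25, Arih1, Uba1, Uba6 and Ube2l3 besides, 2 were called higher and 1 lower after acute LPS (Uba6 also rose and Ube2l3, a ubiquitin-conjugating enzyme, fell), and 1, Herc6, was called after acute Poly(I:C). Over all tested probes 13.2% were called higher and 13.2% lower after acute LPS, and 3.8% higher after acute Poly(I:C). On LPS re-stimulation Trim25, a ubiquitin ligase of antiviral RNA sensing, rose by 3.13 ± 0.20 and Ube2l3 by 0.70 ± 0.19, while Herc6 and Uba6 fell, where 17.2% of tested probes were called higher and 17% lower. Cmpk2, a nucleotide kinase gene next to Rsad2, rose by 6.91 ± 0.22 and 6.58 ± 0.30 with these ligands and fell by 4.41 and 2.10 on re-stimulation. It was 1 of 4 measured genes, of 7 in the list of IFIT and Rsad2 neighbours, and 3 of the 4 were called higher with acute LPS and with acute Poly(I:C), against the same 13.2% and 3.8%. On re-stimulation 2 of the 4 were called lower with LPS and 1 with Poly(I:C), where 17% and 2.62% of tested probes were. Gm14446, another of the 4, averaged 13.22 ± 1.04 in acute and 13.60 ± 1.92 in re-stimulated Poly(I:C) cells.

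Ifnb1, which encodes interferon-β, was above background on 1 of 3 naïve arrays (mean 3.00 ± 0.11). It averaged 13.33 ± 1.03 after acute LPS, 11.63 ± 0.61 after acute Poly(I:C), 9.87 ± 2.09 after acute CpG (8.30 to 12.25) and 5.56 ± 1.56 after acute Pam3CSK4. In re-stimulated cells it averaged 8.88 ± 0.83 with LPS, 9.81 ± 0.69 with CpG and 12.47 ± 1.07 with Poly(I:C), and with Pam3CSK4 it was above background on 1 of 3 arrays. It fell on LPS re-stimulation (-4.45 ± 0.64, adjusted p = 0.00409) and was not called with Poly(I:C) (0.84 ± 0.58, adjusted p = 0.406), and here the difference between these changes was itself called (5.29 ± 1.25, adjusted p = 0.0264). Irf7, the interferon-induced regulator, rose on re-stimulation with LPS (2.22 ± 0.28, adjusted p = 0.00282) and with Poly(I:C) (2.05 ± 0.39, adjusted p = 0.0424) against the acute state. Among 9 interferon signalling genes 3 were called higher and 1 lower after acute LPS, 2 higher after acute Poly(I:C), 1 higher after acute CpG and 0 after acute Pam3CSK4, with median log2 changes of 0.34, 0.45, 0.18 and 0.10. The shares of all tested probes called higher were 13.2% after LPS, 3.8% after Poly(I:C) and 3.09% after CpG, and 13.2% were called lower after LPS. On LPS re-stimulation 3 of the 9 were called higher and 2 lower against acute cells, where 17.2% and 17% of tested probes were. With Poly(I:C) Irf7 was the only one of the 9 called.

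Across the 25 arrays the 45 pairs of members correlated with Pearson r from 0.564 to 0.992 (median 0.937), as a description of arrays that share ligands and slides. Over the 9 group means and 20432 other named genes, those most like Isg15 were Gm9706 (r = 0.995), ENSMUST00000162453 (0.981), Oasl1 (0.978), Pydc4 (0.977) and Ifnb1 (0.976). Those most like Ube2l6 were ENSMUST00000099425 (0.996), Apol9b (0.978), Tapbp (0.977), BC048373 (0.973) and Taf3 (0.972). A probe named for another gene may share sequence with the member, which was not tested. The second probes of Isg15 and Ube2l6 gave the same sign as the first in acute LPS, CpG and Poly(I:C), and a different call only for Ube2l6 in acute Poly(I:C). By the array files the probes lie on mm9, those of Ifit2, Ifit3 and Ifit1 at chr19:34650244-34650303, chr19:34663105-34663164 and chr19:34723796-34723855, Rsad2 at chr12:27127859-27127918 and Isg15 at chr4:155573649-155573708. Mx1 and Mx2 are neighbours on chromosome 16, and RefSeq lists both as transcribed pseudogenes in the C57BL/6J assembly, so their values are transcript levels.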

How the data were processed

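Cy3 intensities of 27 one-colour arrays, read by the scanner software, were deposited per spot, and the authors also deposited log2 values of 25 arrays after RMA background correction and quantile normalization with limma. These deposited log2 values, from 0.943 to 18.8, were the main values. Values made again from the intensities of 62976 spots differed by a median of 0.0355. Deposited spot flags (intensity well above background) set which probes were tested: those marked on at least 2 arrays of either group.

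Tests used R 4.3.3 and limma 3.58.1, 1 moderated linear model per pair of groups with p-values adjusted by Benjamini-Hochberg over all tested probes, and 1 fit of all 9 groups for differences between changes. Adjusted p-values are limma's throughout. A called change needed an adjusted p under 0.05 and 1.5-fold. A gene is shown by its probe with the highest mean over the arrays. Groups came from the sample labels, and 0 columns of the deposited table were left unmapped. The number of arrays limits the precision. The fits were tested on simulated data with known changes.

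Named genes are the 10 members, the 5 genes most like Isg15 and Ube2l6, and genes of 3 lists (ISG15 system, IFIT and Rsad2 neighbours, interferon signalling, of which 1 gene is not reported here). Members and lists were chosen with earlier results of these data known. Replicate numbers pair arrays of 1 slide. Across 30814 probes, departures from the group mean correlated between arrays of the same number at 0.26 to 0.32 between naïve and acute CpG and 0.35 to 0.41 between naïve and acute Poly(I:C), but at 0.01 to 0.04 for acute LPS. Fits with the number as a block were run as alternatives, as were median scaling, 75th percentile scaling, normexp with an offset of 50, no filter on dim probes, 1 fit of all groups, slide as a random block (correlation 0.22), no minimum fold, all 27 arrays, the mean of a gene's probes and each array left out. Promoter windows are from RefSeq on GRCm38.p6, a build other than the mm9 of the probe positions.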

Additional observations from a re-analysis of the deposited data

Results flagged for a closer look

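On the 2 arrays that failed the authors' quality control, 9 member values lay above all naïve arrays when the 27 arrays were normalized together. On re-stimulated LPS replicate 3 they were Ifit1 (11.90), Mx1 (12.11), Mx2 (10.23), Isg15 (16.75), Usp18 (12.79), Uba7 (13.90) and Ube2l6 (12.93), and of these Isg15 and Uba7 were within the range of replicates 1 and 2 while the other 5 were below it. The remaining members, Ifit2, Ifit3 and Rsad2, lay within their naïve range there. On acute Pam3CSK4 replicate 2 the values above naïve were Mx2 (10.60) and Isg15 (14.42). All other members lay below every naïve array on it, such as Usp18 (7.28, naïve 11.92 to 12.11) and Ifit1 (7.59, naïve 10.32 to 10.56). These 2 arrays had 92.3% (LPS) and 99.9% (Pam3CSK4) of probes above background, and 22.9% of the spots of the latter were marked as non-uniform or as outliers. The arrays entered no comparison in the main values.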

How the results depend on the processing

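Of 2540 single gene values under the alternatives, over 150 results, 2260 kept their direction and their side of the threshold, 155 lost the call, 90 gained one and 35 turned direction. Values rebuilt from the intensities by the same method kept all 150. The number of arrays limits these counts, as do the choices below. Leaving out 1 array ended calls in several comparisons, and where it leaves a group with 1 array that array is assumed to vary like the other group. The causes of the changes below were not tested.

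The count of called genes for acute CpG against naïve, 4 of 10, was 8 with median scaling, 0 with no detection filter, 7 in 1 fit of all groups, 0 with the replicate block, 8 with slide as a random block, and 0 to 5 with single arrays left out. Of all probes tested, 1103 were called with median scaling, 412 with no filter and 4648 in the fit of all groups. The replicate block called 586 and slide as a random block 5898. For re-stimulated against acute Pam3CSK4, 0 became 1 in the fit of all groups (974 of all probes called) and 1 with slide as a random block (1999). For re-stimulated against acute Poly(I:C), 2 became 4 with normexp (1759 of all probes called), 0 with no detection filter (228) and 0 in the fit of all groups (3735). It became 0 to 5 with single arrays left out. For re-stimulated LPS against naïve, 6 became 2 with no detection filter (316 of all probes called) and 1 with all 27 arrays (116), and 0 to 8 with single arrays left out. For re-stimulated CpG against naïve the range was 3 to 6, and for re-stimulated Poly(I:C) against naïve 6 to 10. For re-stimulated Pam3CSK4 against naïve, 0 became 1 with median scaling (1535 of all probes called), 1 with normexp (2747) and 2 in the fit of all groups (4920). It became 3 with slide as a random block (6647), and 0 to 2 with single arrays left out. For acute Poly(I:C) against acute CpG, 0 became 6 in the fit of all groups (1344 of all probes called) and 8 with slide as a random block (2022). It became 0 to 9 with single arrays left out. For acute Poly(I:C) against acute Pam3CSK4, 9 became 0 with the replicate block and 0 with all 27 arrays (0 of all probes called in each), and 0 to 9 with single arrays left out. For acute CpG against acute Pam3CSK4, 0 became 2 with slide as a random block (13 of all probes called). Besides the counts given here, the replicate block moved no count by over 1.5 times.

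Turned directions: with all 27 arrays, acute Pam3CSK4 against naïve gave -0.65 for Ifit1, -0.13 for Rsad2 and -0.82 for Mx1, and re-stimulated against acute Pam3CSK4 gave 0.49 for Ifit3 and 0.46 for Mx1. With the mean of its probes Ube2l6 was at 0.08 in acute Pam3CSK4. With median scaling re-stimulated against acute CpG gave 0.11 for Ifit1, 0.38 for Isg15, 0.06 for Usp18 and 0.11 for Ube2l6, and re-stimulated Pam3CSK4 against naïve gave 0.19 for Mx1 and 0.46 for Usp18. With 75th percentile scaling Isg15 was at 0.03 in the former and Usp18 at 0.06 in the latter. With single arrays left out, acute CpG against naïve ranged from -0.33 to 0.23 for Uba7. Acute Pam3CSK4 against naïve ranged from -0.09 to 1.02 for Ifit1, -1.60 to 0.04 for Ifit2, -0.49 to 1.33 for Rsad2, -0.48 to 1.64 for Mx1, -0.18 to 1.16 for Mx2 and -0.97 to 0.50 for Ube2l6. Re-stimulated against acute CpG ranged from -0.82 to 0.76 for Ifit1, -1.12 to 0.05 for Ifit3, -1.39 to 0.15 for Rsad2, -1.11 to 0.32 for Mx2, -0.34 to 0.53 for Isg15 and -0.80 to 0.43 for Usp18. Re-stimulated against acute Pam3CSK4 ranged from -1.34 to 0.45 for Ifit3, -2.02 to 0.11 for Mx1, -0.14 to 0.39 for Usp18 and -0.17 to 1.31 for Ube2l6.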
